A study of Mus musculus with 7 samples.

Results

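The binding of retinoic acid receptor α (RARα) and retinoic acid receptor β (RARβ) was compared in the livers of mice on a control diet. The 2 peak lists of these receptors held 50489 of the 245004 peaks of the series, 35521 for RARα and 14968 for RARβ. RARα and RARβ peaks with at least 1 bp in common formed the class of both receptors, and the remaining ones were called RARα-only or RARβ-only. Both libraries came from the liver of C57BL/6 males at an age of 3 months, fed the control diet. The labels give 1 day on either diet. The methods of the study describe a longer feeding of RA, but the study describes no binding data from mice fed RA. The length of the RA diet behind the readouts below is thus uncertain. The labels name no deletion, transgene or agent for this group. The labels do not say whether livers were pooled. Sites were mapped by ChIP-seq, which sequences the chromatin that an antibody pulls down, with 1 antibody and 1 library per receptor, so no comparison below has a replicate check and no test was run. The other 4 lists, for retinoid X receptor α (RXRα) under the control diet and for all 3 receptors under a diet with retinoic acid (RA), were used as further readouts of the same sites.

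RARs are nuclear receptors for RA, the active form of vitamin A, and RARα and RARβ are encoded by separate genes. They bind DNA as partners of the RXRs, at repeats of a short half-site, and exchange co-repressors for co-activators when the ligand arrives. The liver stores and exports vitamin A, and RXRα there also pairs with receptors for fatty acids, oxysterols, bile acids and xenobiotics. Rarb itself, Cyp26a1 and other genes of retinoid turnover are textbook targets of the RARs.

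The promoters at the strongest peaks of each class are printed below so that the letters at the peaks can be read, together with the promoter of Cyp26a1, the RA-degrading enzyme. Each is the RefSeq window of 300 bases, with 250 before the start and 50 after it, on GRCm38.p6. The windows of the strongest peaks lay wholly under the peak, except that of Gm32584, of which 187 bases did. Of the Cyp26a1 window, 295 bases lay under a RARα peak. Peaks of both receptors are represented by Gm32584 (chr5:36661609-36661908, minus strand) and Zswim3 (chr2:164804864-164805163, plus strand). RARα-only peaks are represented by Sf3b1 (chr1:55027429-55027728, minus strand), which encodes a splicing factor, and Rnd3 (chr2:51149062-51149361, minus strand), which encodes a small GTPase. RARβ-only peaks are represented by 3110082I17Rik (chr5:139460485-139460784, minus strand) and Rad51ap2 (chr12:11455805-11456104, plus strand). The window of Cyp26a1 lies at chr19:37697558-37697857, plus strand, and was chosen after its values were seen. Capitals mark the receptor half-site (AGGTCA, its variant with GGGTCA letters, the form written AGTTCA and the form written GGTTCA), the ETS letters CCGGAAG, the NRF1 letters GCGCATGC, the YY1 letters AAGATGGC, the SP letters GGGCGG, the CRE letters TGACGTCA and CCAAT, on either strand.
Gm32584: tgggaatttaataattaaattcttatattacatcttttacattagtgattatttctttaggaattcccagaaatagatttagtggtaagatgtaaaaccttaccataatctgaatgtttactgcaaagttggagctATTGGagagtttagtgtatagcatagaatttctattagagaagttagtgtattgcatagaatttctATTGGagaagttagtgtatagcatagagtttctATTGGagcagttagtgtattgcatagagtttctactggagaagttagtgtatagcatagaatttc
Zswim3: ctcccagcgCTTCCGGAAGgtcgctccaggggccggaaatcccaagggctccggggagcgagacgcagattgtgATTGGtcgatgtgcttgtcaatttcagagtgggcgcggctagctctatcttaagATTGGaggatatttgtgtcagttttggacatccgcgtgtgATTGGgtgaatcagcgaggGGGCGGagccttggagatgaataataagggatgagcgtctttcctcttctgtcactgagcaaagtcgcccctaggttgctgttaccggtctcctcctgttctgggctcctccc
Sf3b1: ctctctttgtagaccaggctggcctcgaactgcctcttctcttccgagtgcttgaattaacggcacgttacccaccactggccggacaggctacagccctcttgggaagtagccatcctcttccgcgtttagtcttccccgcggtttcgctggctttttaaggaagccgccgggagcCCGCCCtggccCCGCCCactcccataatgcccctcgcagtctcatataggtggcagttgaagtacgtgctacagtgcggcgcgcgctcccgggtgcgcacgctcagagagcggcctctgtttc
Rnd3: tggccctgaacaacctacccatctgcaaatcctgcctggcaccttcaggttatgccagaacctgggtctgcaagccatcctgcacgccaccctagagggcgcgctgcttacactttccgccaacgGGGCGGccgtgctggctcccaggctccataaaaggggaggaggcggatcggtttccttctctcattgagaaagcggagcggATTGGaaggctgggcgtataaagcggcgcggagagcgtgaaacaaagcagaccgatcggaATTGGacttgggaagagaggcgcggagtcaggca
3110082I17Rik: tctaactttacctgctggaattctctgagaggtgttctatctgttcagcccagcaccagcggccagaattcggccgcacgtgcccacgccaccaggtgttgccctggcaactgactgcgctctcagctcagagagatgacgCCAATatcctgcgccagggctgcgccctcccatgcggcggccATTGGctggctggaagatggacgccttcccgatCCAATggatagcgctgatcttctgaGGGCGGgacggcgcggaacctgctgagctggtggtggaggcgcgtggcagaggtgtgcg
Rad51ap2: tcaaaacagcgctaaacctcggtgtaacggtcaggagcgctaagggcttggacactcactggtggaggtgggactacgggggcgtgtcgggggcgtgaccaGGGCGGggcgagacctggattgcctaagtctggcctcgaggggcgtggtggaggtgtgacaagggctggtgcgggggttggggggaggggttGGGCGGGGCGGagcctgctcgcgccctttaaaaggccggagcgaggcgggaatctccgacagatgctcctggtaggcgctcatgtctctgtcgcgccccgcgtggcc
Cyp26a1: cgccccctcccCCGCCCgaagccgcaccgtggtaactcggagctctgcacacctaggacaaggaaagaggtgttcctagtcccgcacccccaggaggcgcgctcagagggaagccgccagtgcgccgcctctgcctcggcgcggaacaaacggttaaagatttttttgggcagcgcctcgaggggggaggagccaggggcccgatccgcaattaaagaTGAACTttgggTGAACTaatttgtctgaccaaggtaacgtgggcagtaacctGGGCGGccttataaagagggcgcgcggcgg
The 6 windows of the strongest peaks held 0 half-sites, 2 ETS matches, 8 SP matches and 11 CCAAT matches. The 3 CCAAT matches at Gm32584 stood in near-copies of the same stretch. That window had 30% GC and 0 CpG, against medians of 62% and 23 CpG in windows with both receptors, so it is not typical of its class. The 2 ETS matches stood at Zswim3, overlapping on opposite strands. The Cyp26a1 window held 2 half-sites, TGAACT on this strand, which formed 1 direct repeat with 5 bases between.

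Most RARβ peaks lay on a RARα peak, and most RARα peaks had no RARβ peak. Of the 14968 RARβ peaks, 11432 overlapped a RARα peak (76.4%, Wilson 95% interval 75.7 to 77.0), which left 3536 RARβ-only peaks. Of the 35521 RARα peaks, 11282 overlapped a RARβ peak (31.8%, 31.3 to 32.2), which left 24239 RARα-only peaks. These intervals cover counting error only. When the RARα list was cut to its 14968 highest-scoring peaks, 7876 RARβ peaks (52.6%, 51.8 to 53.4) and 7685 RARα peaks (51.3%, 50.5 to 52.1) overlapped. Of the 7092 RARβ peaks without a match in the cut list, 3556 (50.1%) overlapped a RARα peak of lower score. The total read count of each library is not known, so a longer list and a deeper library cannot be told apart.

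The score of a peak is the peak caller's own value, 10 times the negative log10 of its p-value, and is not normalized between libraries. It orders peaks within a list, and scores of different lists are set side by side below as values and not as a comparison of binding. By this order, the RARβ-only peaks stood low in their list. Of the 4786 RARβ peaks that scored at least 100, 247 (5.16%) had no RARα overlap. Of the 19767 RARα peaks at or above that value on their own scale, 10920 (55.2%) had no RARβ overlap. The median score of RARβ peaks was 86.0 in the class of both and 59.3 in the RARβ-only class. For RARα the medians were 208 and 92.2. Peaks that just missed the overlap were few, since 270 RARβ-only peaks (7.64%) and 467 RARα-only peaks (1.93%) lay within 500 bp of a peak of the other list.

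The overlap differed with the place of the peak as well as with its score. Peaks were placed by the distance of the midpoint to the nearest start of a protein-coding gene. In the highest-scoring 10% of the RARα list, 2107 of 2404 peaks within 1 kb of a start overlapped a RARβ peak (87.6%), and 438 of 761 peaks beyond 10 kb did (57.6%). In the lowest-scoring 10% these shares were 24.4% and 10.7%. In the RARβ list the highest-scoring 10% overlapped RARα in 98.5% of the peaks within 1 kb and 97.6% of those beyond 10 kb. In its lowest 10% the shares were 86.4% and 39.1%. RARβ peaks near a start thus overlapped RARα even at the lowest scores, whereas distal RARβ peaks of low score mostly did not.

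**Figure D1:**
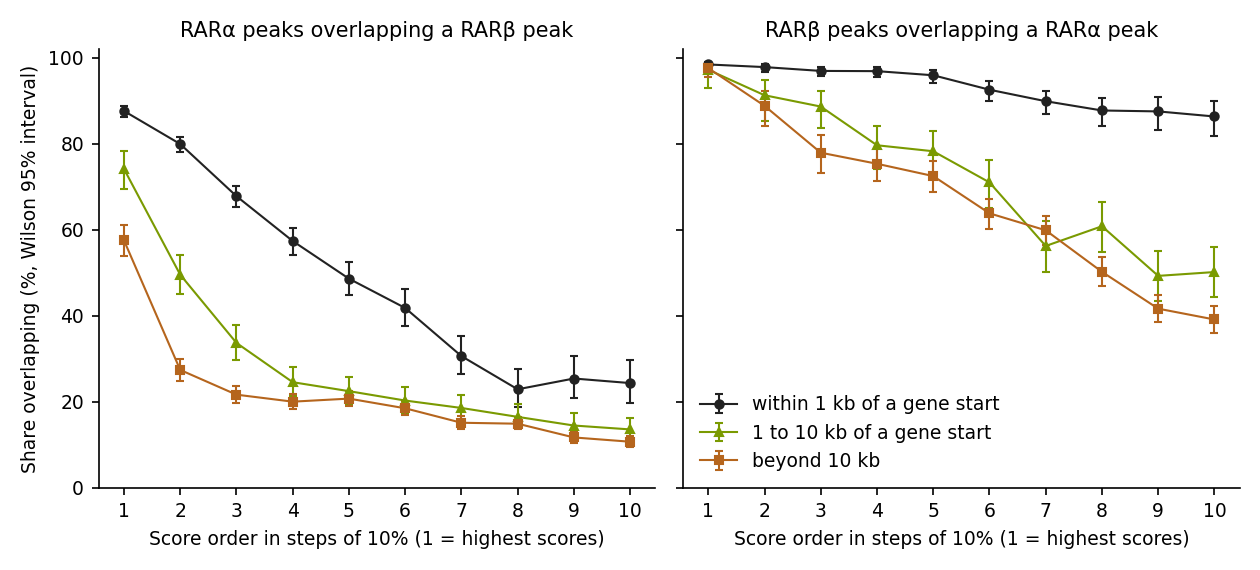
Share of RARα peaks that overlapped a RARβ peak (left) and of RARβ peaks that overlapped a RARα peak (right), in percent, by the order of the score within each list in steps of 10% and by distance of the midpoint to the nearest gene start. Bars are Wilson 95% intervals. In the lowest 10% of the RARβ list, 86.4% of the peaks within 1 kb and 39.1% of those beyond 10 kb overlapped.

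Where both receptors were called, most RARβ peaks lay inside the RARα peak. The median overlap of the 11432 RARβ peaks with their RARα peak was 510 bp. It spanned a median of 100% of the RARβ width and 63.7% of the RARα width, and 7212 RARβ peaks (63.1%) lay wholly inside the RARα peak. The midpoints stood a median of 83 bp apart, and 6571 pairs (57.5%) had them within 100 bp. The median width was 816 bp for the RARα peaks and 541 bp for the RARβ peaks of this class, against 520 bp for RARα-only and 391 bp for RARβ-only peaks. Across the 11432 pairs the 2 scores had a Spearman correlation of 0.414, and all points come from the same 2 libraries.

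Peaks of both receptors lay at gene starts more often than the peaks of 1 receptor, most of which lay beyond 10 kb. Within 1 kb of a start were 6090 of the 11432 RARβ peaks of the class of both (53.3%, 52.4 to 54.2), 3118 of the 24239 RARα-only peaks (12.9%, 12.4 to 13.3) and 326 of the 3536 RARβ-only peaks (9.22%, 8.31 to 10.2). Beyond 10 kb were 32.8%, 68.2% and 70.6%. The median distance was 0.575 kb for the class of both, 22.6 kb for RARα-only and 24.9 kb for RARβ-only peaks. At equal list length the shares within 1 kb were 67.5%, 21.6% and 15.5%. The order of the RARα-only and RARβ-only classes did not hold under every rule. When an overlap of at least 50% of each width was required, 31.9% of the RARβ-only and 17.5% of the RARα-only peaks lay within 1 kb, and with scores of at least 100 in both lists the shares were 32.7% and 29.3%.

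**Figure D2:**
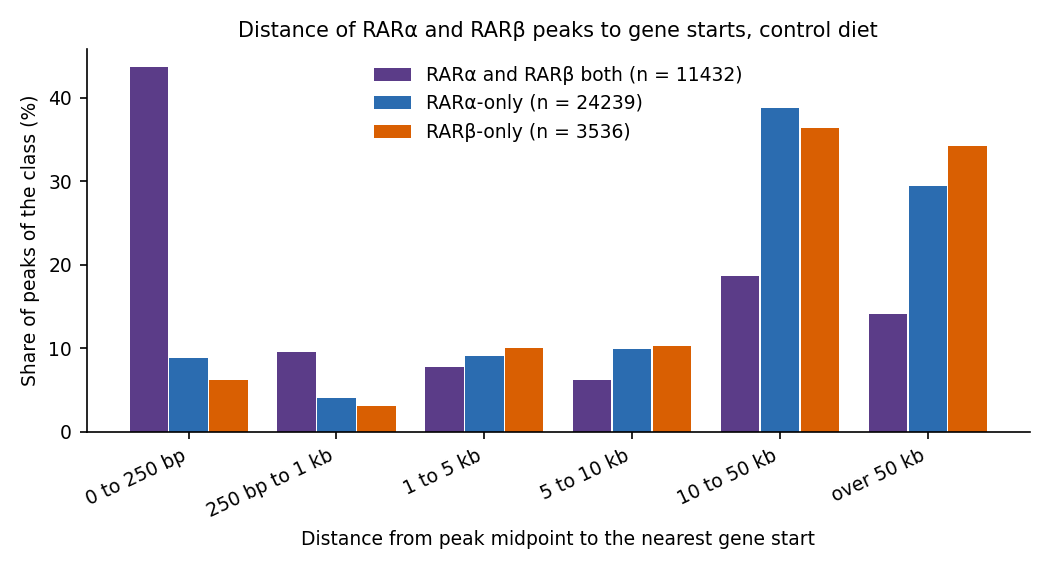
Share of the peaks of each class, in percent, by the distance of the peak midpoint to the nearest protein-coding gene start, for peaks of both receptors (RARβ peaks, n = 11432), RARα-only (n = 24239) and RARβ-only peaks (n = 3536). Of the peaks of both receptors, 43.7% lay within 250 bp, against 8.80% of RARα-only and 6.19% of RARβ-only peaks.

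At gene starts the RARα peaks reached further than the RARβ peaks, and more so into the gene. In the 6090 pairs within 1 kb of a start, the RARα peak ran from a median of -432 bp to +486 bp and the RARβ peak from -305 bp to +282 bp, with negative values upstream. The median midpoint was +31 bp for RARα and -12 bp for RARβ. Within pairs, the RARα peak extended further by a median of 128 bp upstream and 188 bp downstream, and its midpoint was the more downstream in 3678 pairs (60.4%).

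The lists that were not used to define the classes separated them further. RXRα under the control diet had a peak at 86.2% of the peaks of both receptors (85.5 to 86.8), at 50.7% of RARα-only peaks and at 60.9% of RARβ-only peaks (59.3 to 62.6). Under RA, RARα had a peak at 94.2%, 79.9% and 35.9% of the 3 classes, and RARβ at 87.7%, 34.3% and 45.5%. At equal list length the shares with RARα under RA were 98.6%, 98.5% and 60.2%, and those with RARβ under RA 91.6%, 38.7% and 62.4%. In the full lists, 7241 RARα-only peaks of the control diet (29.9%) overlapped both RAR lists under RA, and 12117 overlapped that of RARα and not that of RARβ. Of the RARβ-only peaks, 970 (27.4%) overlapped both RAR lists under RA and 1629 (46.1%) overlapped neither. A peak in no other list of the series was found for 0.551% of the class of both, 9.13% of RARα-only peaks and 29.7% of RARβ-only peaks. The 1051 RARβ-only peaks found in no other list had a median score of 55.2, near the lowest score of the list, 50.

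**Figure D3:**
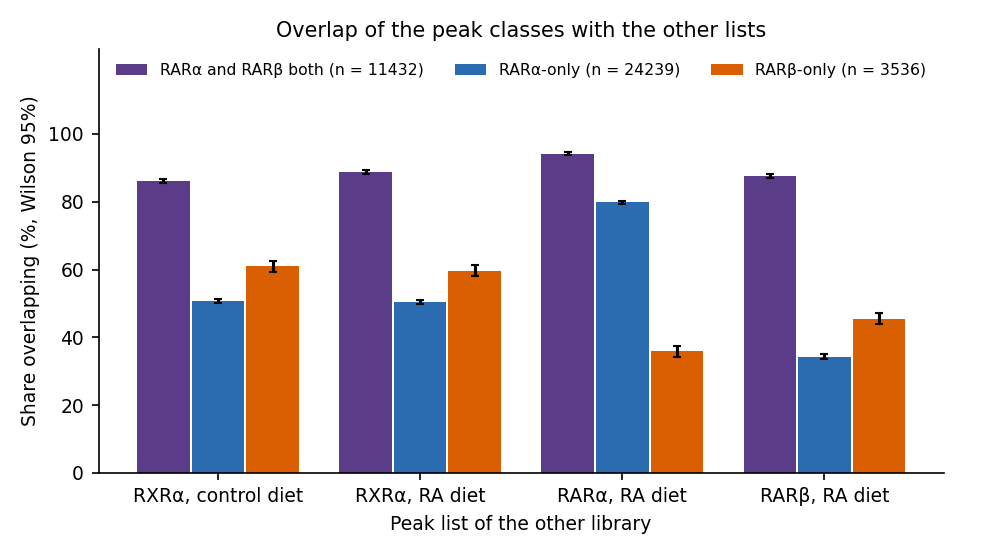
Share of the peaks of each class, in percent with Wilson 95% intervals, that overlapped a peak of RXRα under the control diet or of RXRα, RARα or RARβ under RA. RARα under RA overlapped 79.9% of RARα-only and 35.9% of RARβ-only peaks, and 60.2% of the latter at equal list length.

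The presence of RXRα split the peaks of 1 receptor. RARα-only peaks with an RXRα peak (12295) had a RARβ peak under RA in 58.9% of cases (58.1 to 59.8), and those without (11944) in 8.98% (8.48 to 9.50). The same peaks had a RARα peak under RA in 80.6% and 79.1%, and their median scores were 91.2 and 93.4. RARβ-only peaks with RXRα (2155) had a RARβ peak under RA in 66.6% and a RARα peak in 52.6%, whereas those without (1381) had them in 12.5% and 9.78%. Sites of RARα without RXRα were thus called again in the other RARα library about as often as sites with it, and they seldom had RARβ under RA. The part of depth in these shares was not tested.

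Among the 5 strongest promoter peaks of both receptors, ordered by the lower of the 2 ranks, were those at Gm32584, Zswim3, Srsf7 and 2810006K23Rik. At Srsf7, which encodes a splicing factor, the RARβ peak (chr17:80207050-80207805, score 427, rank 237) lay 58 bp upstream of the start, and its RARα peak had a score of 1229 and rank 39. All 5 were also called in the other 4 lists.

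The strongest RARα-only promoter peaks were at Sf3b1, Rnd3, Slc31a1, Nop56 and Tnrc6c, with RARα scores from 844 to 1117 and ranks from 52 to 127. The Sf3b1 peak (chr1:55026954-55027942) had its midpoint 54 bp downstream of the start. Slc31a1, which encodes a copper importer, had its peak midpoint 9 bp upstream of the start. Under RA, RARβ had a peak at all 5, with scores from 87.7 to 286, so the absence of RARβ held for the control diet list. RXRα under the control diet was called at 3 of the 5 and not at Nop56 and Tnrc6c.

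The strongest RARβ-only promoter peaks were at 3110082I17Rik, Rad51ap2, Hemk1, Rfx2 and Diaph3. The 3110082I17Rik peak (chr5:139460263-139460812) had a score of 720.5, rank 79 of the RARβ list, and a score of 948 in the RARβ list under RA. RARα under RA had a peak there with a score of 69.0. All 5 were called again for RARβ under RA, with scores from 191 to 948, and 3 of them, Rad51ap2, Hemk1 and Diaph3, had no RARα peak in either diet. Their RARβ scores under the control diet were 338, 325 and 230. Rfx2, which encodes a factor of ciliated cells, had a RARβ score of 315 and a RARα score under RA of 152.

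Distal peaks of both receptors were led by 5 regions near Col19a1, Gm2244, Rpusd4, Lrrc4c and Gad2. They had a RARβ score of 3100, the highest value in that list, which 6 peaks shared, so it does not rank them. The study's filter on input signal was not applied, and the input signal at these regions was not examined. All 5 were called in all 6 lists with scores of at least 2144.7, and the widest spanned 5202 bp. The strongest distal RARβ-only peak (chr2:98664792-98665306, score 415) lay next to the region near Lrrc4c, and was called in all 4 lists outside the comparison. The next 4 were nearest to Plcb1, Mdm2, Cabyr and Mnd1. The peaks at Plcb1 (score 347) and Mnd1 (score 224) were called in no other list. The strongest distal RARα-only peaks, nearest to Kctd15, Rbm34, Nfkbiz, Fnbp1l and Gm4131, had scores from 679 to 786 and were called for RXRα and for RARα under RA in all 5 cases. The Nfkbiz peak lay inside that gene, 16.7 kb from its start, and RARβ under RA had a peak there with a score of 139.

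The nearest gene was found for each peak among 21537 protein-coding genes. The class of both had 8698 nearest genes, RARα-only peaks 11279 and RARβ-only peaks 2902. Of the genes nearest to RARα-only peaks, 5231 (46.4%) were also nearest to a peak of both, which is 60.1% of the latter. Of the genes nearest to RARβ-only peaks, 2252 (77.6%) were also nearest to a RARα-only peak and 1578 (54.4%) to a peak of both, so 389 (13.4%) belonged to no other class. Among nearest genes, 48.6% had 1 RARα-only peak, against 77.6% with 1 peak in the class of both and 82.4% in the RARβ-only class.

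Some genes were nearest to many RARα-only peaks. Adgrl2, which encodes an adhesion receptor, was nearest to 21 of them, Foxa2 to 19, Myc and Tbl1xr1 to 18 each, and Plpp3 to 17. The peaks lay up to 1004 kb from the start of Adgrl2 and 1861 kb from that of Tbl1xr1. RXRα under the control diet, with 61128 peaks in all, had 66, 33, 60, 58 and 36 peaks nearest to these genes in that order. The space between gene starts was not taken into account. Foxa2 encodes a factor that opens liver chromatin, and 16 of its 19 peaks lay downstream of the start, up to 308 kb away, with 2 RARβ peaks beside 21 RARα peaks in all. RXRα was called at 12 of the 19 and RARα under RA at 18. Over all RARα-only peaks these shares were 50.7% and 79.9%. For Myc, 17 of 18 lay downstream, up to 818 kb away. All 17 peaks at Plpp3, which encodes a lipid phosphatase, lay downstream of the start, and RXRα was called at 15 of them.

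Peaks of both receptors were most numerous at Ice2, Irf2bp2 and Ptpn1 (8 each), then at Dio3 and Eapp (7 each). All 8 at Irf2bp2, which encodes a transcriptional co-repressor, lay upstream of the start, up to 143 kb away. RXRα, RARα under RA and RARβ under RA were called at all 8, against 86.2%, 94.2% and 87.7% of the whole class. Ptpn1 encodes a phosphatase that dampens insulin signalling, and 7 of its 8 peaks had RXRα, near the class share of 86.2%. Dio3 encodes the enzyme that inactivates thyroid hormone, and its 7 peaks lay 54.8 to 255 kb upstream. RARβ-only peaks were most numerous at Cd47, Gins2, Rufy4 and Slc16a7 (5 each) and at Abt1 (4). Of the 5 at Cd47, the gene of a cell-surface signal that restrains phagocytes, RXRα was called at 4 and RARα under RA at 1. Over all RARβ-only peaks these shares were 60.9% and 35.9%.

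**Figure D4:**
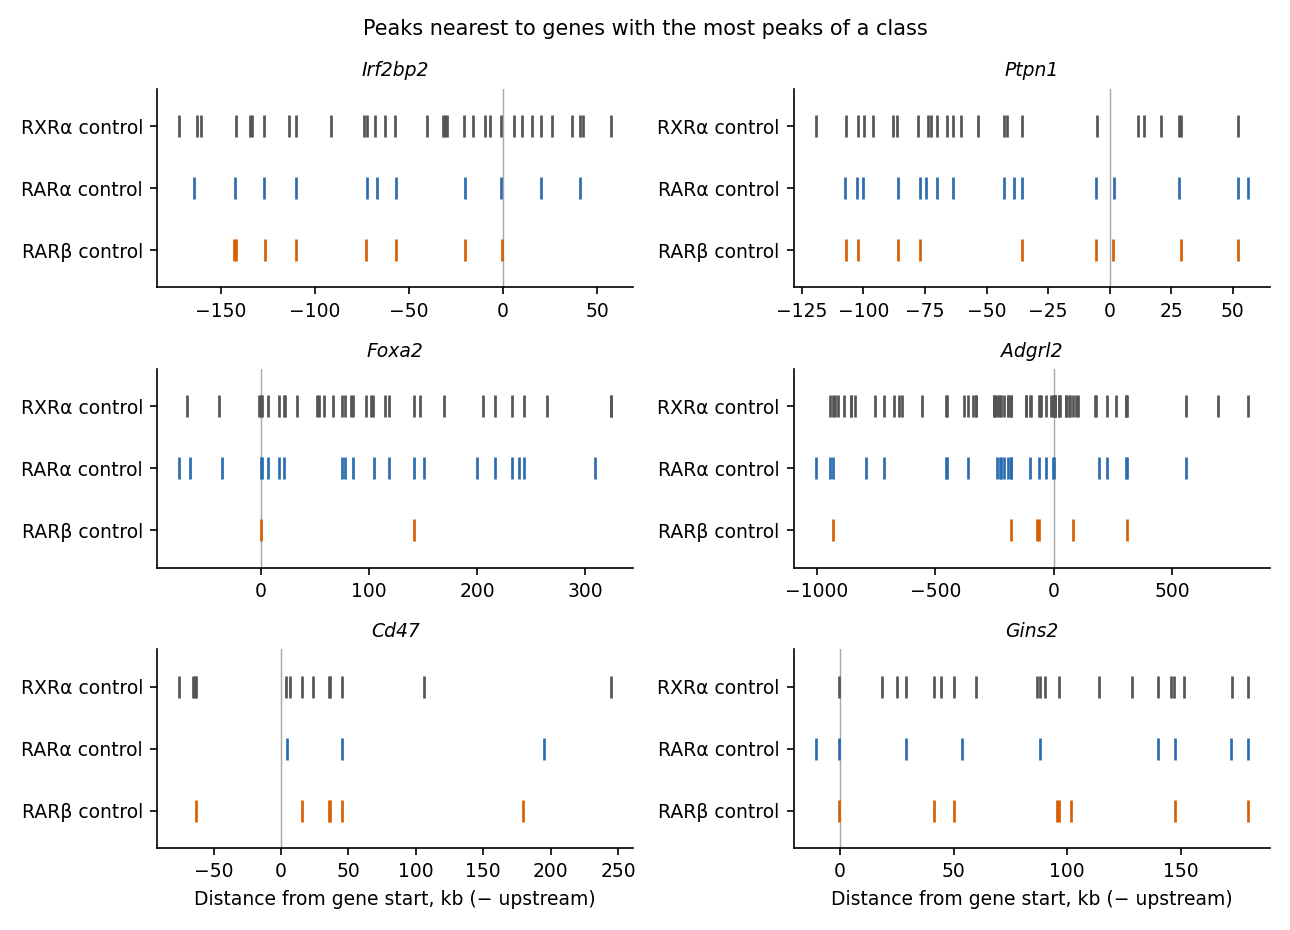
Midpoints of the peaks whose nearest protein-coding start is that of the named gene, by distance from the start in kb (negative values upstream), for RXRα, RARα and RARβ under the control diet. Foxa2 had 21 RARα and 2 RARβ peaks, and Irf2bp2 had 11 and 8.

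Genes were then counted by peaks with a midpoint within 10 kb of the start. Of 21537 protein-coding genes, 9175 (42.6%) had peaks of both receptors, 4147 (19.3%) of RARα only and 316 (1.47%) of RARβ only, and 7899 (36.7%) had neither. The 2 peaks of a gene in the first class need not overlap. RXRα had a peak near 95.3% of the genes of both, 73.5% of the RARα-only genes, 61.1% of the RARβ-only genes and 15.5% of the genes with neither. RARβ under RA had a peak near 57.8% of the genes that had RARα only under the control diet. RXRα had a peak near 13209 of all genes (61.3%). The split between the receptors moved with list length, since at equal length 8033 genes had both (37.3%), 2117 RARα only (9.83%) and 1458 RARβ only (6.77%). With midpoints within 1 kb of the start the shares were 31.4%, 14.5% and 1.62%. The shares 42.6%, 19.3% and 1.47% are the background for the gene lists below, which were not tested, and 37.3%, 9.83% and 6.77% that for counts at equal length.

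Among 24 genes of retinoid turnover and RAR signalling, 9 had peaks of both receptors (37.5%), 7 of RARα only (29.2%) and 0 of RARβ only. Of the enzymes that degrade RA, Cyp26a1 had a RARα peak 69 bp downstream of the start (score 79.5) and a RARβ peak 1848 bp upstream (rank 4785), where RARα and RXRα also had a peak. The RXRα peak at that upstream site had a score of 729, and that at the Cyp26a1 start 51.1. The highest-scoring RXRα peak within 10 kb of the Cyp26a1 start lay 4869 bp downstream, with a score of 1963. The higher-scoring of the 2 RARβ peaks within 10 kb lay 4907 bp downstream. Under RA, the highest-scoring RARβ peak lay 4867 bp downstream, with a score of 845. Cyp26b1 had a RARα peak 3477 bp downstream (score 205) and no RARβ peak nearer than 36.6 kb. Cyp26c1, the neighbour upstream of Cyp26a1, had the same upstream site 10.8 kb downstream of its own start.

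Genes that make RA or handle its precursors differed as well. Lrat, which esterifies retinol for storage, had a RARα peak 7 bp from its start (score 129) and neither a RARβ nor an RXRα peak within 10 kb. Dhrs3, a retinal reductase, had peaks of both receptors at 333 and 187 bp. Rdh10, a retinol dehydrogenase, had RARα 778 bp upstream with a score of 464 and RARβ 1355 bp upstream with a score of 88.1. Both of these peaks lay nearer to the start of the ribosomal protein gene Rpl7, 671 and 94 bp upstream of it. Rdh11 had a RARα peak at 103 bp. Aldh1a2 and Aldh1a3, which make RA from retinal, had RARα peaks 4777 and 7415 bp upstream, and Aldh1a1 had none of either receptor within 10 kb.

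Among the carriers, Rbp4, which takes retinol from the liver into blood, had a RARα peak of 7.30 kb over most of the gene and a RARβ peak 4794 bp downstream of the start. Crabp1, Crabp2 and Stra6 had no peak of either receptor within 10 kb, although all of them had one farther out. Of the receptors, Rara had 4 RARα peaks within 10 kb and its nearest RARβ peak 17.9 kb away, inside the gene. Rarg had peaks of both 10032 and 10470 bp from its start, inside the gene. Rarb had neither within 10 kb of its outermost start, and promoters inside a gene were not used for these distances. The nearest RARα and RARβ peaks of Rarb were 276 and 507 kb downstream of that start, inside the gene. Their scores were 62.5 and 124, and the RARβ peak (chr14:16575179-16575911) had rank 3247 in its list. Whether either lay at a promoter inside the gene was not examined, so the class of Rarb refers to its outermost start. Of other targets, Tgm2 had RARα 74 bp upstream (score 555) and RARβ 9916 bp downstream (score 52.9), Nrip1 RARα at 612 bp (score 324) and RARβ at 3607 bp (score 55.2), and Meis1 both, at 687 and 615 bp. Hic1 had RARα only, and Cdx1 had neither. Pck1, of gluconeogenesis, had both.

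The number of retinoid genes in each class moved with list length. At equal length 4 had both, 2 RARα only and 5 RARβ only, against 9, 7 and 0 in the full lists. Over all genes the same change was from 42.6%, 19.3% and 1.47% to 37.3%, 9.83% and 6.77%.

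**Figure D5:**
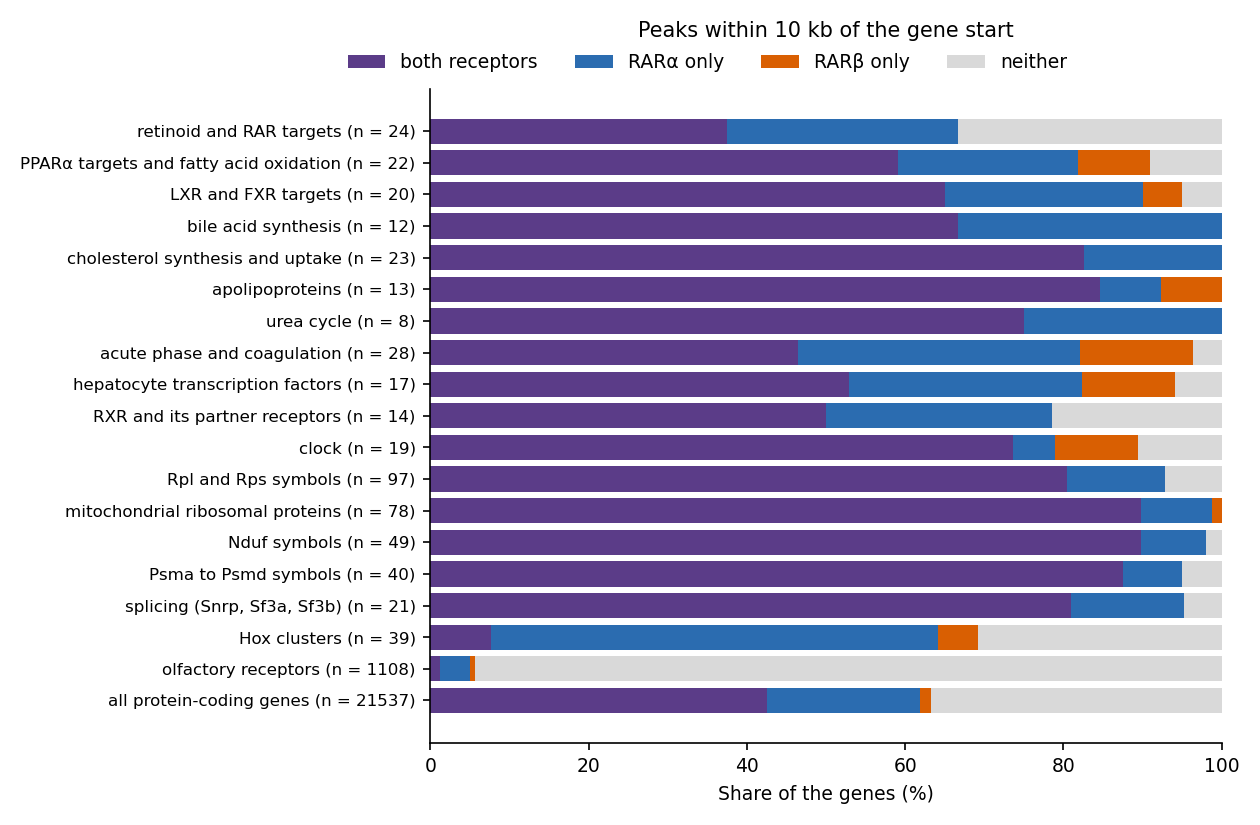
Share of the genes of each list, in percent, with a peak midpoint within 10 kb of the start for both receptors, RARα only, RARβ only or neither, with n genes per list. Of all 21537 protein-coding genes, 42.6% had both, 19.3% RARα only and 1.47% RARβ only, and the lists named by symbols hold every gene whose symbol begins so.

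The lipid lists held larger shares of genes with both within 10 kb than all protein-coding genes, which was not so for apolipoproteins within 1 kb. Of 23 genes of cholesterol synthesis and uptake, 19 had both (82.6%) and 4, among them Ebp, Nsdhl and Pmvk, had RARα only. Ebp and Nsdhl lie on the X chromosome, as do Otc, Ndufb11 and Psmd10, which are named below. On X, 153 of 659 RARα peaks overlapped a RARβ peak (23.2%), against 31.8% over all chromosomes. The part of the chromosome in the class of these genes was not tested. The highest-scoring RARα peak stood within 1 kb of the start in 21 of the 23. Sqle and Cyp51, enzymes of the synthesis, had scores of 439 and 379 for RARα and 146 and 201 for RARβ. Of 13 apolipoprotein genes, 11 had both, Apoe had RARα only and Apob had RARβ only, with a RARβ peak 233 bp downstream of the start (score 59.4). Some of these genes are neighbours, and Apoc1, Apoc2 and Apoc4 share 1 RARβ peak. Within 1 kb of the start, 2 of the 13 apolipoprotein genes had both and 6 RARα only, and at equal list length 9 had both, 0 RARα only and 3 RARβ only. The cholesterol counts at equal length were 19, 4 and 0.

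Of 12 genes of bile acid synthesis, 8 had both (66.7%) and Cyp8b1, Acox2, Scp2 and Baat had RARα only. At equal list length the single-receptor counts turned to 0 RARα only and 2 RARβ only, with 6 for both. Cyp7a1, the rate-limiting enzyme, had RARα 62 bp upstream (score 143) and RARβ 72 bp upstream (score 55.7). Of 22 targets of PPARα and genes of fatty acid oxidation, 13 had both (59.1%), 5 RARα only and 2 RARβ only. The RARα-only members were Angptl4, Acadl, Plin2, Cpt1a and Cyp4a14, and Cpt1a, which admits fatty acids into mitochondria, had its RARα peak at 1205 bp with a score of 203. Of the RARβ-only members, Vnn1 had a RARβ peak 9562 bp upstream (score 59.6). Of 20 LXR and FXR targets, 13 had both (65.0%), among them Abca1, Fasn and Nr0b2, and Scd1 had RARβ only, 749 bp upstream (score 61.0). The 5 RARα-only members were Fgfr4, Fetub, Slc51b, Abcg1 and Abcb11. At equal length this list had 11 with both, 2 RARα only and 3 RARβ only, and the PPARα list 12, 4 and 3.

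Among other liver genes, 6 of 8 genes of the urea cycle had both and Arg1 and Otc had RARα only. Of 28 acute phase and coagulation genes, 13 had both (46.4%), 10 RARα only, led by Trf, Ttr, C4b, Saa4 and C3, and 4 RARβ only. The 4 were Fga, Ahsg, Saa1 and Saa2, and the last 2 shared 1 RARβ peak (score 61.2). At equal list length 9 had both, 5 RARα only and 8 RARβ only, so the order of the single-receptor classes reversed. Of 17 hepatocyte transcription factors, 9 had both (52.9%), Tbx3, Prox1, Foxa1 and Gata4 were among those with RARα only, and Onecut1 and Hhex had RARβ only. The RARβ peaks of Onecut1 and Hhex lay 27 bp upstream and 191 bp downstream of the start, with scores of 61.7 and 112. This list also turned, from 5 RARα only and 2 RARβ only to 1 and 4 at equal length. Of the RXRs and their partner receptors, 7 of 14 had both, among them Ppara, Nr1h3 and Nr1i3, and Thrb, Nr1i2, Nr1h4 and Rxra had RARα only. Of 19 clock genes, 14 had both (73.7%). Clock had RARα only, and Npas2 and Dbp had RARβ only, and at equal length 10 had both, 1 RARα only and 6 RARβ only. At Per2 the RARα peak had a score of 179 in its list and the RARβ peak one of 215 in its own, and at Nr1d2 they were 388 and 303.

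Genes of basic cell functions had both receptors more often than the background share of 42.6%. Of 97 genes whose symbols begin with Rpl or Rps and a digit, 78 had both (80.4%), 12 RARα only, among them Rpl28, Rpl7l1, Rpl37a and Rpl8, and 0 RARβ only. These symbols also take in 14 genes that are not cytosolic ribosomal proteins, namely 10 kinase genes such as Rps6ka1 and Rps6kb1, 2 pseudogenes, Rps19bp1 and Rps23rg1. Without these, a choice made after the members were seen, 69 of 83 had both (83.1%) and 10 RARα only. For mitochondrial ribosomal proteins the counts were 70 and 7 of 78, and Mrps15 had RARβ only. The RARα-only members led with Mrpl15, Mrpl42, Mrps23, Mrpl52 and Mrpl27. Of 49 Nduf genes, which encode subunits of respiratory complex I or, in 8 cases, its assembly factors, 44 had both and Ndufv2, Ndufa4l2, Ndufa8 and Ndufb11 had RARα only. Of 40 genes with proteasome symbols, 35 had both, among them Psmc3ip, which is no subunit of it, and Psmb4, Psma7 and Psmd10 had RARα only. Of 21 splicing genes, 17 had both, and Sf3b1, Sf3b3 and Snrpa1 had RARα only.

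Most genes of the Hox clusters with a peak had RARα only. Of 39 genes, 3 had both (7.69%), 22 RARα only (56.4%) and 12 neither. The RARα-only members with the highest scores were Hoxb8, Hoxb7 and Hoxb9, which share 1 peak (score 272), and Hoxa7 and Hoxa9, which share another (score 255). Hoxc10 and Hoxc11 had RARβ only, from 1 shared peak (score 65.2). RXRα had a peak near 17 of the 39, against 61.3% of all genes. At equal list length 10 of the 39 had RARα only, a larger share than the 9.83% of all genes. Of 1108 olfactory receptor genes, 1046 (94.4%) had neither receptor. RARβ only was found at Olfr1128, Olfr170, Olfr221, Olfr450, Olfr596, Olfr96 and Olfr98, and the leading RARα-only genes were Olfr94, Olfr1373, Olfr649, Olfr90 and Olfr1009.

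Whole liver holds several cell types, and a peak list cannot tell more cells of a type from more binding per cell. Over all protein-coding genes, 36.7% had neither receptor within 10 kb, the background for the counts of neither below. Of 10 hepatocyte markers, 7 had a peak of at least 1 of the 2 receptors and 3 had neither, which is near that share. All 10 had RXRα, which 61.3% of all genes had. Tat and Ahsg had RARβ only, Ttr, G6pc and Cyp3a11 RARα only, and Alb, Cyp2e1 and Serpina1a neither. Of 11 Kupffer cell markers, 10 had neither, and Cd68 had both, 5737 and 6216 bp upstream. Of 11 stellate cell markers, Col1a1, Lrat and Col3a1 had RARα only and 8 had neither. Of 9 endothelial markers, 7 had RARα only, among them Kdr, Fcgr2b, Stab2, Clec4g and Pecam1, with RARα scores from 67.6 to 194. At equal list length 1 of the 9 had RARα only and 1 RARβ only, against 9.83% and 6.77% of all genes. Of 6 cholangiocyte markers, Sox9 had RARα only and 5 had neither.

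The letters of the promoters were compared next. The RefSeq table gave 21263 windows of protein-coding genes, classed by peaks within 1 kb of the start into 7066 with both receptors, 3166 with RARα only, 299 with RARβ only and 10732 with neither. CpG-rich windows, with at least 10 CpG, were 91.7%, 75.7% and 71.6% of the first 3 classes. The median number of CpG was 23, 19 and 17, against 4 in windows with neither. The ETS letters stood in 23.2% of windows with both (22.2 to 24.2), 14.0% with RARα only (12.8 to 15.2), 9.70% with RARβ only (6.84 to 13.6) and 11.6% of all windows. Among CpG-rich windows the ETS shares were 24.6%, 17.3%, 11.7% and, with neither receptor, 6.45%. CCAAT stood in 42.1%, 32.6% and 47.8% of the first 3 classes and 38.2% of all windows. The NRF1 letters were found in 6.74%, 3.89% and 5.35% (3.52% of all), the YY1 letters in 5.60%, 3.51% and 2.34% (3.05% of all), the SP letters in 70.0%, 60.9% and 61.2% (46.2% of all) and the CRE letters in 3.91%, 2.12% and 4.01% (2.23% of all).

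The half-site of the receptors was less frequent in windows with both receptors than in windows with neither, and this difference was not seen among CpG-rich windows. A half-site stood in 36.2% of windows with both receptors, 39.7% with RARα only, 42.5% with RARβ only, 44.8% with neither and 41.2% of all. Among CpG-rich windows the shares were 34.8%, 35.5%, 39.3% and 34.8%. Direct repeats of the half-site were rare. With 1 base between, they stood in 14 windows with both (0.198%, 0.118 to 0.332), 11 with RARα only (0.347%, 0.194 to 0.621), 3 with RARβ only (1.00%, 0.342 to 2.91) and 11 with neither (0.102%, 0.0572 to 0.183). This share was thus higher in each class with peaks than with neither, on few windows and with an interval for both that overlaps that for neither. With 2 bases between they stood in 0.0708%, 0.126%, 0% and 0.0932% of the 4 classes, and with 5 bases in 0.0142%, 0.0632%, 0% and 0.130%. The windows cover 300 bases and not the whole of each peak.

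RARα peaks of the control diet could span whole genes of at least 2 kb, and RARβ peaks of that diet did not. RARα had 168 peaks of at least 3 kb (0.473% of its list) and RARβ 15 (0.100%). Among 19030 protein-coding genes of at least 2 kb, 26 had at least 80% of their span under 1 RARα peak, 0 had it under 1 RARβ peak and 0 under 1 RXRα peak of the control diet. These limits were chosen after the widths had been seen. Under RA, the RARα list had 23 such genes, 18 of them the same, the RARβ list 1 and the RXRα list 2. Of the 26, 13 were genes of the major urinary proteins, abundant secreted products of the male mouse liver, and all 13 were also among the 23. The widest peak was at Mup10 (chr4:60575980-60584704, 8.73 kb, score 51.3). The others held Hp (haptoglobin), Apoa5, Cebpa, Pck1, Rbp4, Gstp1 and Zfp36. At these 26 RARα peaks RARβ had a narrower peak in 10, up to 2005 bp wide, and RXRα had a peak in all 26, up to 3776 bp wide. The Mup genes are near-identical copies, so which copy a read came from is uncertain.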

How the data were processed

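Liver chromatin of male C57BL/6 mice was precipitated with antibodies against RARα, RARβ or RXRα and sequenced as single-end reads of 35 bp. The study's methods name Bowtie 0.12.7 for alignment to mm10 and MACS 1.4.1 for peaks. The study describes binding data of RXRα and RARα, and none of RARβ or from mice fed RA. That the same versions served those lists is therefore assumed. The labels also name CASAVA 1.4. Each deposited list gives, per library, positions and the caller's score, a scale set by the authors' caller and not normalized between libraries. Depth is unknown, since the lists give no read totals, and there is 1 library per receptor and diet. The study's filter on input signal was not applied. No columns held other samples.

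Overlaps were computed with numpy 2.4.6 and pandas 2.3.3, were equal to those of bedtools 2.31.1, and were tested on simulated intervals. Equal length kept the highest RARα scores (cut at 132.67). A RefSeq table of GRCm38.p6 gave gene spans. The strand came from RefSeq promoter windows by gene ID or else from GENCODE M1 by symbol, for 21537 of 21887 protein-coding genes. The start is the outermost start, and exons and introns of mm10 were not analysed here. Motifs were sought on both strands and may overlap. Wilson 95% intervals were given.

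The members and gene lists were chosen with earlier results of these data known. Named were the 5 highest-scoring peaks per class and place, the 5 genes with most peaks per class, every RARβ-only and up to 5 leading RARα-only members per list, and the retinoid genes. Some genes the rule names are not reported here, though counts include them. Other names were chosen after their values were seen. Alternatives changed the overlap, the score minimum, list length, distance and gene starts.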

Additional observations from a re-analysis of the deposited data

How the results depend on the processing

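The share of RARβ peaks on RARα (76.4%) and of RARα peaks on RARβ (31.8%) became 74.2% and 31.0% with an overlap of at least 25% of each width, 56.9% and 24.0% with 50%, 78.2% and 33.1% within 500 bp, 87.7% and 21.2% with scores of at least 100 in both lists, and 52.6% and 51.3% with the RARα list cut to the RARβ length. At equal length, the RARβ share of 52.6% became 51.0%, 37.3% and 53.9% under the first 3 of these, 47.3% with the 5000 highest-scoring peaks of each list, and stayed with RARα peaks tied at the cut kept.

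Shares within 1 kb of a start, for the class of both, RARα-only and RARβ-only peaks, were 51.2%, 17.5% and 31.9% with 50% overlap, 71.7%, 29.3% and 32.7% with scores of at least 100, 67.5%, 21.6% and 15.5% at equal length, and 59.1%, 15.1% and 10.5% with every RefSeq start of a gene, an alternative chosen after seeing the data. The RARβ-only share was 12.3% with 25% overlap and 8.08% within 500 bp, where the other 2 moved by less than their interval. The class of both stood above the others under all of these settings. The order of the other 2 classes reversed with 50% overlap and with scores of at least 100.

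Scores of at least 100 left 4648 genes with both receptors, 6692 with RARα only and 200 with RARβ only. Equal length gave 2117 genes with RARα only and 1458 with RARβ only. Genes of all kinds gave 6924 and 579. The causes of these moves were not tested, but fewer peaks or more genes entered by construction. Of the alternatives to the main overlap shares, distance shares and gene counts, 35 moved and 13 did not. Of the gene list counts and readouts, 69 moved and 90 did not, the lists without the members outside their complex included. At equal length RARα under RA overlapped 98.5% of RARα-only and 60.2% of RARβ-only peaks. No paired analysis was possible because each group has 1 library and no value comes from a test. Each list is 1 library of unknown depth, so a peak missing from a list may be unbound or below detection.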

Other observations

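Some starts of liver genes had RARβ and no RARα in the control diet lists, although the RARα list under RA held a strong peak there. These sites were chosen after their values were seen. Scores are not normalized between libraries, so the same limit in 2 lists is not the same strength. Of 6626 RARα peaks that scored at least 300 under RA, 22 (0.332%) overlapped no RARα peak of the control diet. In reverse, 4 of 4763 such RARα control peaks (0.0840%) overlapped no RARα peak under RA. RARβ under the control diet had a peak at 11 of the 22 sites and RXRα at 17, and 10 of the 22 lay within 1 kb of a start.

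The strongest of these at a start was at Hhex, a factor of liver development. Its RARα score under RA was 791, and under the control diet the RARβ score was 112 and the RXRα score 105. At Apob, the main protein of very-low-density lipoprotein, the RARα score under RA was 627 and the RARβ control score 59.4. At Plk3, a stress-responsive kinase gene, they were 612 and 68.7. At Xbp1, a factor of the secretory stress response, they were 527 and 91.8, and at Hspa8, a heat shock cognate chaperone, 473 and 208. At Fga, which encodes a chain of fibrinogen, they were 464 and 76.8, and at Onecut1 434 and 61.7. Egfr had scores of 355 and 76.7. Serpina1b had 485 for RARα under RA and no RARβ peak under the control diet, and Serpina1d had 394 and 51.4, and these genes are near-identical copies. Among all 1269 RARβ-only peaks with a RARα peak under RA, the median RARα score was 87.1, against 123 for that whole list. The cause of the gaps was not tested.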
